A study of Mus musculus with 4 samples.

Results

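Described here are 7 genes, Sprr1a, Ly6d, Sytl5, Sdcbp2, Elapor1, Cib3 and Sox4, in livers of mice that lacked neuregulin 4 (Nrg4) and in wild-type (WT) livers. They were chosen from the 22180 genes measured because their level lay near the median of the value table in WT livers, or because they were strongly higher in both knockout (KO) samples, so their KO minus WT difference is a description and carries no test. Each gene was read from the probe set that the platform annotation pairs with that gene alone, and Sox4, which had 2 such probe sets, from the brighter one.

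The KO group was livers of male Nrg4 knockout mice, and the WT group livers of male wild-type mice. Both groups were kept for 20 weeks on a diet used to cause NASH, a fatty and inflamed liver, starting at 3 months of age, and were sampled in the fed state. RNA was pooled, with 2 independent pools per genotype, each hybridised to 1 Affymetrix Mouse Gene ST array. The number of animals in a pool and how the Nrg4 allele was made were not stated in the labels. So n = 2 counts pools, and an SD measures the spread between them. Each SE is limma's moderated one, which combines a gene's own spread between pools with the variance over all genes. For a gene whose pools lie close together it can exceed what its own pools give.

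Sprr1a encodes a small proline-rich protein that is cross-linked into the cornified envelope of squamous epithelia, and Ly6d a GPI-anchored surface protein of keratinocytes and of lymphoid progenitors of the B lineage. Sytl5, Sdcbp2 and Elapor1 encode proteins of membrane traffic: an effector of Rab27 GTPases, the phosphoinositide-binding PDZ protein syntenin-2, and a transmembrane protein of endosomes and lysosomes that restrains insulin receptor signalling in mouse beta cells. Cib3 is an EF-hand protein of the calcium and integrin-binding family, and Sox4 a transcription factor of progenitor cells and developing tissues. The liver's main epithelial cells are hepatocytes and the cholangiocytes of the bile ducts, and neither forms a cornified envelope.

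Nrg4, the targeted gene, had a log2 level of 0.93 in both KO pools, against 2.54 and 2.30 in the WT pools. The difference was -1.49 ± 0.20 (SE), which did not pass over all genes (limma, adjusted p = 0.182). Values are the deposited log2 expression values, whose table median was 0.54 and whose zero point is not known. The KO mean of Nrg4 lay 0.39 above that median. KO pool 1 gave the same value, 0.9323, for the genes Krt7 and Olfr374, so the equal Nrg4 values are not read as precision. The list for hepatocytes, the cell type that makes up most of the liver, had a mean log2 level of 8.22 and 8.31 in the KO pools, against 8.40 and 8.34 in the WT pools. That list of 10 holds the dim gene Trh in place of the intended marker Trf, which lowers its mean in every pool. Trh was at -0.06 and 0.46 in the KO pools, against 0.31 and 0.09 in the WT pools. Across all genes the KO pools correlated at r = 0.981, the WT pools at 0.984 and pairs of 1 KO and 1 WT pool at 0.976 to 0.981, a correlation across genes that are not independent replicates.

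All 7 genes were higher in the KO livers, and in each the lower KO pool lay above the higher WT pool. The median difference of the 7 was 2.07 on the log2 scale, from 1.31 for Sox4 to 3.00 for Sprr1a, beside a median of 0.02 over all genes. Pools did not overlap for 20.9% of all genes in the higher direction and for 17% in the lower one. For 5 of the 7, and for 0.284% of all genes, the lower KO pool lay more than 1 above the higher WT pool. Since the genes were chosen on this contrast, nothing is read from these shares. In bulk liver RNA, more cells of a type and more RNA per cell cannot be told apart.

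**Figure D1:**
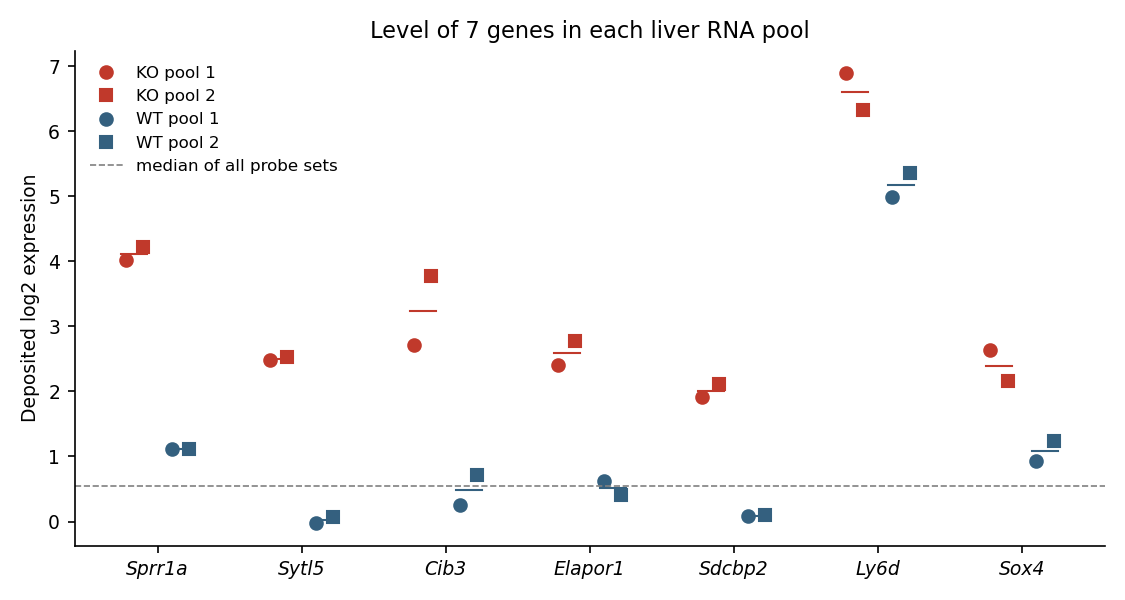
Deposited log2 expression (vertical axis) of the 7 genes in each pool, KO in red and WT in blue, with a short line at each group's mean and a dashed line at the table median of 0.54. The KO points lie above the WT points for every gene, and Ly6d is the gene whose WT points, at 4.995 and 5.35, lie far above the dashed line.

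Sprr1a had log2 levels of 4.02 and 4.22 in the KO pools, against 1.12 in both WT pools. The KO and WT values lay far apart and the pools of each genotype close together, with means of 4.12 ± 0.14 in KO and 1.12 ± 0.002 in WT (SD, n = 2 each). The difference of 3.00 ± 0.19 (SE) ranked 1st among all genes. Its WT mean lay 0.58 above the table median, where folds may be compressed, so no fold is given.

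Ly6d, the other surface or envelope gene, was at 6.89 and 6.33 in the KO pools, against 4.995 and 5.35 in the WT pools. Its WT mean lay 4.63 above the table median, so it was already well measured in WT livers, unlike the other 6 genes, whose WT means lay within 0.6 of that median. The difference was 1.43 ± 0.26 (SE), or 2.70-fold, with KO pool 1 above KO pool 2.

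Among the genes of membrane traffic, Sytl5 was at 2.48 and 2.53 in the KO pools, against -0.03 and 0.07 in the WT pools. Both WT values lay below the table median and both KO values well above it, a difference of 2.48 ± 0.19 (SE). Sdcbp2 was at 1.91 and 2.11 in the KO pools, against 0.09 and 0.10 in the WT pools, a difference of 1.92 ± 0.19. Elapor1 was at 2.40 and 2.77 in the KO pools, against 0.62 and 0.41 in the WT pools, a difference of 2.07 ± 0.22. The WT means of Sytl5, Sdcbp2 and Elapor1 lay at -0.52, -0.45 and -0.03 relative to the table median, so these 3 genes were dim in WT livers, though no detection calls were used here.

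Cib3, the EF-hand gene, was at 2.71 and 3.77 in the KO pools, against 0.26 and 0.72 in the WT pools. Its difference was 2.75 ± 0.37 (SE), ranked 2nd among all genes, and its KO pools lay 1.06 apart, the widest gap of the 7. Over all genes, the median gap between the KO pools was 0.25 and the 90th percentile 0.68, and Cib3 was the 1 gene of the 7 beyond that percentile. Without KO pool 1 the Cib3 difference was 3.28, and without KO pool 2 it was 2.22.

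Sox4, the transcription factor, was at 2.63 and 2.16 in the KO pools, against 0.94 and 1.24 in the WT pools, a difference of 1.31 ± 0.24 (SE). Its second probe set read 0.24 and -0.26 in the KO pools, against -0.08 and -0.09 in the WT pools. That probe set was dim on all 4 arrays and differed by 0.07, so the Sox4 difference rests on 1 of its 2 probe sets and was 0.69 as their mean. The other 6 genes had 1 probe set each.

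The 7 genes fell into different orders in the KO pools. Sprr1a, Sytl5, Cib3, Elapor1 and Sdcbp2 were higher in KO pool 2 than in KO pool 1, by 0.05 to 1.06, while Ly6d and Sox4 were higher in KO pool 1, by 0.56 and 0.47. The Ly6d and Sox4 profiles, each taken relative to its WT mean, lay 0.19 apart (Euclidean distance over the 4 arrays), and those of Elapor1 and Sdcbp2 0.29 apart. Replicate pools have no order and number 2 per genotype, so this grouping was not tested.

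**Figure D2:**
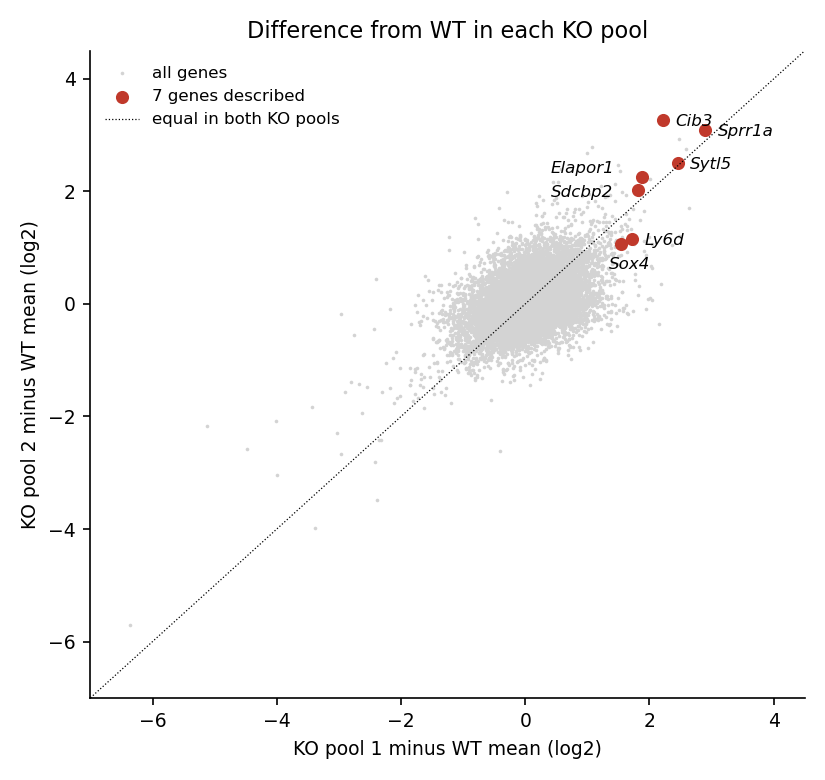
Log2 level in KO pool 1 (horizontal) and KO pool 2 (vertical), each minus the WT mean, for all 22180 genes in grey and the 7 genes in red, with a dotted line where both pools are equal. Cib3 lies furthest above the line, with 1.06 between the pools, and Ly6d and Sox4 lie below it.

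RefSeq's promoter table (GRCm38.p6) holds 6 of the 7 genes. Ly6d is named only. The 250 bases before the transcript start that the table gives for each were searched on both strands for 5 motifs: the AP-1 site TGANTCA, the TATA box TATAAA, the CCAAT box CCAAT, the GC box GGGCGG and the SOX or TCF core ACAAAG. The AP-1 site was found for Sprr1a and Sdcbp2, and in 6.75% of all 32851 windows of that length in the table. The Sprr1a and Sox4 windows lie outside the span that RefSeq gives the gene. Those of Sytl5 and Sdcbp2 lie wholly inside it, and those of Cib3 and Elapor1 with 249 and 204 of 250 bases, so for these 4 the letters need not be upstream of the gene. The Sprr1a window is shown 5′ to 3′, with the AP-1 matches in capitals, since AP-1 is a known regulator of small proline-rich genes in keratinocytes.
Sprr1a (chr3:92485882-92486131, minus strand): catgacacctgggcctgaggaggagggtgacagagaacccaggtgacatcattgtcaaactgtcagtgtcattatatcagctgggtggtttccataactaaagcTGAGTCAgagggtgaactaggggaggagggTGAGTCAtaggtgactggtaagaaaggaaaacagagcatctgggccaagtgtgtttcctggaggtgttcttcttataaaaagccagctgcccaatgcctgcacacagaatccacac

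The Sprr1a window held 2 AP-1 matches, beginning 146 and 116 bases before the start, with a TATA box 43 and a CCAAT box 26 bases before it. The Sdcbp2 window held 1 AP-1 match 44 bases before the start, with a GC box at 27 and a CCAAT box, on the other strand, at 225. The TATA box was in 12.4% of all windows, the CCAAT box in 33.8%, the GC box in 32.7% and the SOX or TCF core in 16.5%. Sox4 had 4 CCAAT matches, which are in capitals here (ATTGG is the motif on the other strand), since no other member's window held more than 1.
Sox4 (chr13:28953700-28953949, minus strand): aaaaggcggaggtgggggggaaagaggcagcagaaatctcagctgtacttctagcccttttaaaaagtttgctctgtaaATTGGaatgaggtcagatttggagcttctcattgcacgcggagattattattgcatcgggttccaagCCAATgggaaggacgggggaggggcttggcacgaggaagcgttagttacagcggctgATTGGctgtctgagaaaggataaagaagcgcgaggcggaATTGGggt

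None of the 5 motifs was found in the windows of Sytl5, Elapor1 and Cib3, and no 2 matches overlapped. A match is a description of the letters in this window, and the data hold no binding measurement.

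The closest relatives of the 7 genes were examined in the same fit over all 22180 genes, in which limma called 7 genes, or 0.0316%, at an adjusted p under 0.05, 3 higher in KO (0.0135%) and 4 lower (0.018%). At an unadjusted p under 0.05, 4.77% of all genes were higher and 3.08% lower. Of 161 gene entries on 9 lists of relatives and epithelial genes, limma called 0, while 20 were higher and 3 lower at an unadjusted p under 0.05. When limma's variance was allowed to follow intensity, it called 83 of all 22180 genes and 4 of these entries. The 4 were Sdc4 as lower and Cdh1, Plet1 and Pls1 as higher. Cdh1, Plet1 and Pls1 were known from earlier results of these data to be higher when the lists were drawn up.

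The other small proline-rich genes, whose products join the same envelope as Sprr1a, differed by -0.51 to 0.25. Of 10 measured, 6 lay above 0 and 4 below, with a median of 0.05. The pools did not overlap for 3 higher and 3 lower, beside 20.9% higher and 17% lower over all genes. Sprr2b was at 0.52 and 0.39 in the KO pools, against 0.87 and 1.06 in the WT pools (-0.51 ± 0.20 SE), while Sprr2e differed by 0.25 ± 0.21 and Sprr2g by -0.39 ± 0.24. All 10 had group means less than 0.5 above the table median in both genotypes, so a change there could go unseen, and relatives of this family share sequence.

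The cornified envelope and keratinocyte list gave a median of 0.03 over 21 genes, 11 above 0 and 10 below. Of these 21, 15 had group means less than 0.5 above the table median in both genotypes. Its pools did not overlap for 5 higher and 3 lower, near the 20.9% and 17% of all genes. Ppl, the envelope and desmosome linker periplakin, was at 4.29 and 4.23 in the KO pools, against 3.62 and 2.63 in the WT pools (1.14 ± 0.34 SE). Its WT pools lay far apart, and it did not pass (limma, adjusted p = 0.489). Cdsn, corneodesmosin, differed by -0.45 ± 0.19 and Sfn, the epithelial 14-3-3 protein stratifin, by -0.88 ± 0.38. Leaving out WT pool 1 brought the Sfn difference to -0.38, and leaving out WT pool 2 to -1.38.

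The Ly6 and uPAR-domain family, small cysteine-rich surface proteins to which Ly6d belongs, gave a median of 0.12 over 32 genes, 21 above 0 and 11 below. Pools did not overlap for 9 higher and 3 lower of these 32, beside 20.9% higher and 17% lower over all genes. Lypd6 was at 1.30 and 0.86 in the KO pools, against 0.29 and 0.01 in the WT pools (0.93 ± 0.24 SE, limma adjusted p = 0.416). Ly6e, a broadly expressed member, differed by 0.54 ± 0.20 and Plaur, the urokinase receptor, by 0.62 ± 0.25. Without KO pool 2 the Plaur difference was 0.31, and 20 of the 32 had a mean under the table median.

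Partners in membrane traffic gave medians near 0. The synaptotagmin-like proteins and Rab27 partners of Sytl5 had a median of 0.04 over 14 genes, 9 above 0, with Sytl2 at 0.52 ± 0.19, Rab8b at 0.54 ± 0.31 and Sytl3 at -0.27 ± 0.19 (SE). The Rab8b difference was 0.13 without KO pool 2 and 0.95 without KO pool 1. Sytl2 was at 0.89 and 1.10 in the KO pools, against 0.48 and 0.45 in the WT pools, and did not pass (limma, adjusted p = 0.592). Of the 14 genes, 6 had group means less than 0.5 above the table median in both genotypes. The syntenins and syndecans had a median of 0.08 over 9 genes, 5 above 0. Within that list Cd63, a tetraspanin cargo of syntenin and known beforehand from earlier results to be higher, differed by 0.98 ± 0.20, while the heparan sulfate proteoglycans Sdc4 and Sdc2 differed by -0.60 ± 0.19 and -0.51 ± 0.22. The pools of Cd63, Sdc4 and Sdc2 did not overlap, but limma called none of these over all genes (adjusted p = 0.317, 0.507 and 0.668). On this list of 9, pools did not overlap for 3 higher and 3 lower, beside 20.9% higher and 17% lower over all genes.

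The ELAPOR list, with the mannose 6-phosphate and insulin receptors, had a median of 0.08 over 6 genes, 5 above 0. Elapor2, the paralogue of Elapor1, differed by 0.10 ± 0.23, Igf1r by 0.13 ± 0.21 and Igf2r by 0.26 ± 0.19 (SE). Leaving out KO pool 1 turned the sign of Elapor2 (-0.15), and leaving out KO pool 2 that of Igf1r (-0.03). The group means of Elapor2 lay below the table median in both genotypes. The CIB proteins and partners had a median of -0.01 over 7 genes, 3 above 0 and 4 below. Of these 7, 6 had group means less than 0.5 above the table median in both genotypes, so a change there could go unseen. Cib1 differed by -0.38 ± 0.37, or 0.11 without KO pool 1, Cib4 by -0.22 ± 0.19 and the calcineurin-like Chp2 by -0.24 ± 0.20.

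The other SOX factors had a median of -0.07 over 18 genes, 7 above 0 and 11 below. Of these 18, 11 had group means less than 0.5 above the table median in both genotypes, Sox30 among them. Sox13 was at 2.75 and 2.24 in the KO pools, against 1.39 and 1.89 in the WT pools (0.85 ± 0.27 SE, limma adjusted p = 0.514). Sox9, a factor of bile duct cells, was at 3.30 and 4.05 in the KO pools, against 3.41 and 2.22 in the WT pools, so its pools overlapped. Sox30 differed by -0.36 ± 0.20.

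**Figure D3:**
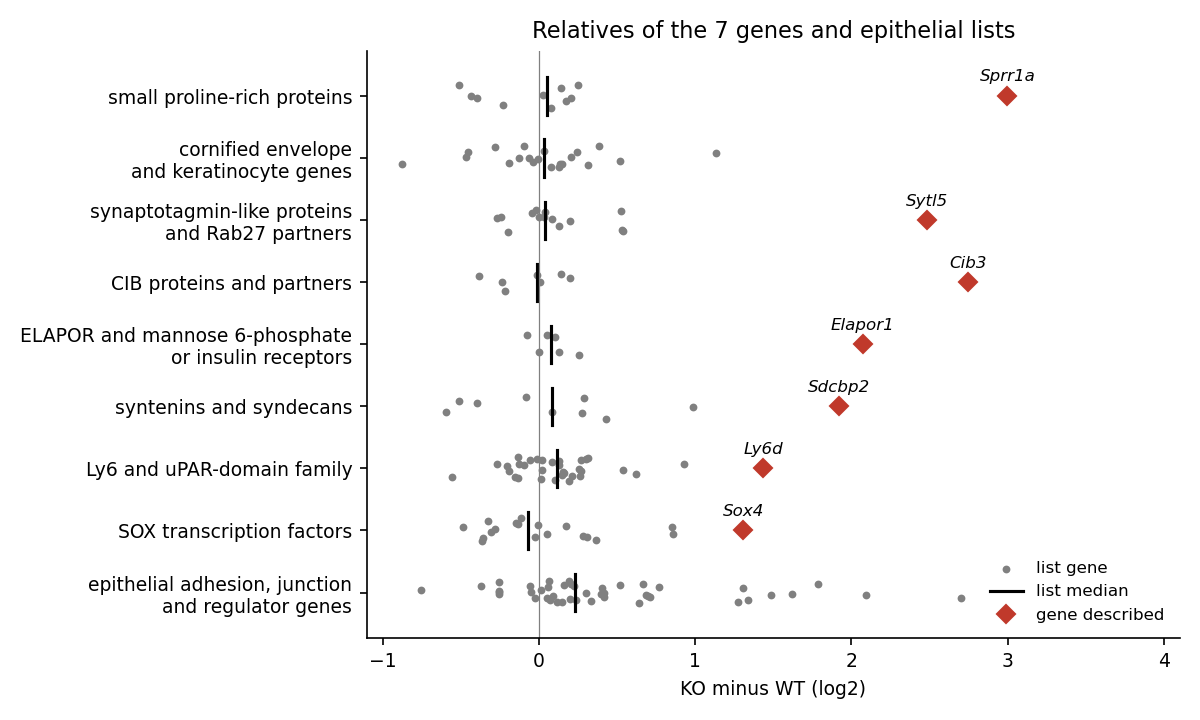
KO minus WT difference on the log2 scale (horizontal axis) of each gene on the 9 lists of relatives and epithelial genes, in grey, with a black line at the list median and the 7 genes described as red diamonds in the row of their relatives. List medians lie between -0.07 and 0.23, and the diamonds, chosen for their difference, between 1.31 and 3.00.

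Genes of epithelial adhesion, junctions and regulators lay mostly above 0 in the KO minus WT difference, though limma called 0 of them over all genes. Of 44 measured, 35 lay above 0 and 9 below, with a median of 0.23 beside 0.02 over all genes. Pools did not overlap and were higher for 24, or 54.5%, against 20.9% of all genes, and 13, or 29.5%, were higher at an unadjusted p under 0.05, against 4.77%. Cdh1, Cd24a, Plet1 and Pls1 were known from earlier results to be higher when the list was drawn up. Without these 4, 31 of 40 lay above 0, with a median of 0.20, and 20 (50%) did not overlap.

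Pls1, an actin-bundling protein of epithelial microvilli, was at 3.49 and 3.94 in the KO pools, against 1.47 and 0.57 in the WT pools (2.70 ± 0.34 SE, limma adjusted p = 0.172). Plet1, a surface protein of progenitor epithelia, was at 4.19 and 4.67 in the KO pools, against 1.87 and 2.81 in the WT pools (2.09 ± 0.35). Cdh1, the adhesion molecule E-cadherin, was at 4.76 and 5.36 in the KO pools, against 3.62 and 3.26 in the WT pools (1.62 ± 0.27). As the mean of its 2 probe sets Cdh1 differed by 0.88. In all 3 the pools did not overlap, as in 20.9% of all genes in the higher direction. Plet1 and Cdh1 each had a limma adjusted p of 0.243. Without WT pool 1 Pls1 passed (limma, adjusted p = 0.0122), with a difference of 3.15.

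**Figure D4:**
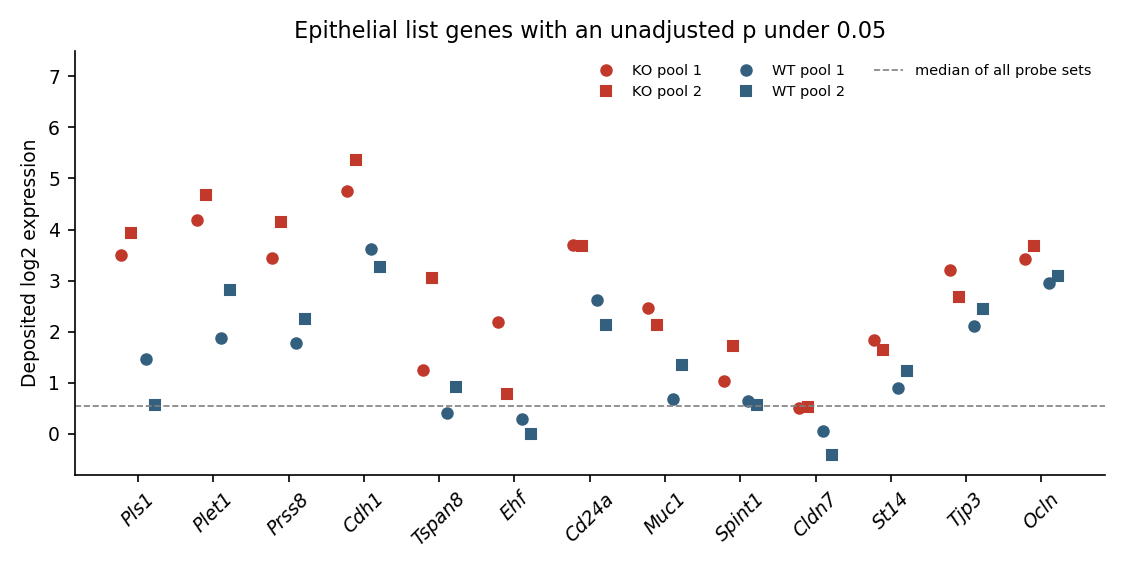
Deposited log2 expression (vertical axis) in each pool, KO in red and WT in blue, of the 13 genes of the epithelial list with an unadjusted p under 0.05, ordered by difference, with a dashed line at the table median of 0.54. Pls1 has the widest separation, at 2.70, and the KO pools of Tspan8 and Ehf lie far apart, with KO pool 2 the higher one for Tspan8 and KO pool 1 for Ehf.

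Cell type markers were read in the same pools. Cholangiocyte markers had a mean log2 level of 1.52 and 1.69 in the KO pools, against 1.22 and 0.90 in the WT pools. Of 7 measured, 5 lay above 0, led by Pkhd1, the fibrocystin gene of bile duct cilia, at 3.52 and 3.62 in the KO pools, against 2.04 and 1.33 in the WT pools (1.88 ± 0.27 SE, limma adjusted p = 0.182, or 0.037 without WT pool 1 and 0.044 with a variance that follows intensity). The bile duct keratins Krt19 and Krt7 had KO means 0.19 and 0.36 above the table median. Krt19 differed by -0.06 and Krt7 by 0.40. Epcam, the epithelial cell adhesion molecule, was at 1.35 and 2.35 in the KO pools, against 1.31 and 0.96 in the WT pools (0.71 ± 0.35 SE). Sctr differed by -0.27 and Cftr by 0.30, and both had group means below the table median in both genotypes. The part of these cells in the difference of the 7 genes was not tested.

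Markers of squamous keratinocytes were at the low end of the scale in all pools. Their mean level was 0.50 and 0.21 in the KO pools, against 0.15 and 0.56 in the WT pools, and all 5 measured had group means less than 0.5 above the table median. Krt10 differed by -0.12 ± 0.42 and Ivl, involucrin, by 0.13 ± 0.21 (SE). Gastric markers averaged 0.11 and 0.39 in the KO pools, against 0.25 and 0.29 in the WT pools, with the mean over the 4 arrays under the table median for all 7, Tff2 at 0.33 ± 0.34 and Muc5ac at -0.28 ± 0.22. The KO mean of Tff2 alone lay 0.12 above that median. Pancreatic acinar markers averaged 0.78 and 0.30 in the KO pools, against 0.38 and 0.32 in the WT pools, with Cela1 at -0.01 ± 0.19 and Ctrb1 at 0.59 ± 0.34, or 0.12 without KO pool 1. Intestinal markers averaged 1.74 and 1.76 in the KO pools, against 1.86 and 1.81 in the WT pools, with Fabp2 at -0.43 ± 0.19 and Lgals4 at -0.51 ± 0.20. Of these 6 markers 3 lay above 0. Pools did not overlap for 2 higher and 2 lower, beside 20.9% higher and 17% lower over all genes. The 2 higher were Cdx2 and Vil1, at 0.31 and 0.21, whose KO means lay at -0.20 and -0.32 relative to the table median. Mesothelial markers averaged 0.85 and 0.75 in the KO pools, against 0.87 and 0.60 in the WT pools, with Msln at 0.37 ± 0.23 and Gpm6a at 0.12 ± 0.44. None of these 5 lists had a mean level higher in both KO pools than in both WT pools.

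Among blood and stromal lists, that of B and plasma cells, where lymphoid progenitors express Ly6d, had a mean level of 1.08 and 0.93 in the KO pools, against 0.66 and 0.60 in the WT pools. Jchain, the joining chain of secreted immunoglobulins, was at 3.02 and 2.73 in the KO pools, against 1.95 and 1.41 in the WT pools (1.19 ± 0.25 SE, limma adjusted p = 0.347). Jchain had the largest difference of the 5 measured, of which 4 lay above 0 and 1 below. Cd79a differed by 0.52 and Cd79b by -0.16. Ms4a1 and Mzb1, at 0.17 and 0.15, had group means below the table median in both genotypes. The part of B and plasma cells in the Ly6d difference was not tested. Stellate cell markers averaged 4.26 and 4.52 in the KO pools, against 4.03 and 4.11 in the WT pools, with Pdgfrb at 1.14 ± 0.20 and Dcn at 0.23 ± 0.21. Of these 7 markers 5 lay above 0 and 2 below, Reln at -0.11 and Des at -0.09. Macrophage markers averaged 4.25 in both KO pools, against 4.06 and 4.30 in the WT pools, with the scavenger receptor Marco at -2.37 ± 0.32 (limma adjusted p = 0.182, or 0.0122 without WT pool 1) and Vsig4 at -0.01 ± 0.19. The other 5 macrophage markers lay above 0, among them Trem2 at 1.30 and Cd68 at 0.72. T and NK cell markers averaged 1.22 and 1.15 in the KO pools, against 1.11 and 0.90 in the WT pools, with Cd3g at 1.07 ± 0.33 (0.60 without KO pool 2) and Cd3e at -0.42 ± 0.41. Endothelial markers averaged 4.95 and 4.997 in the KO pools, against 4.93 in both WT pools, with Cdh5 at 0.33 ± 0.20. Of these 6 markers 3 lay above 0 and 3 below, with a median of 0.006. Neutrophil markers averaged 0.21 and 0.13 in the KO pools, against 0.25 and 0.36 in the WT pools, with S100a9 at -0.47 ± 0.25. All 6 neutrophil markers had group means less than 0.5 above the table median in both genotypes, so a change there could go unseen. Among hepatocyte markers Alb differed by -0.15 ± 0.19 and Cps1 by -0.39 ± 0.19. Of the 10 on that list, 3 lay above 0 and 7 below. Their pools did not overlap for 1 higher and 5 lower, beside 20.9% higher and 17% lower over all genes. No marker on any of the 13 lists passed over all genes by limma in the fit of all 4 pools. With a variance that follows intensity, Marco, Cps1 and Pkhd1 were among the 83 of all 22180 genes called (limma, adjusted p = 0.0325, 0.0412 and 0.044). At an unadjusted p under 0.05 the largest counts were 2 higher for stellate and for B and plasma cells, and 2 higher and 1 lower for macrophages.

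**Figure D5:**
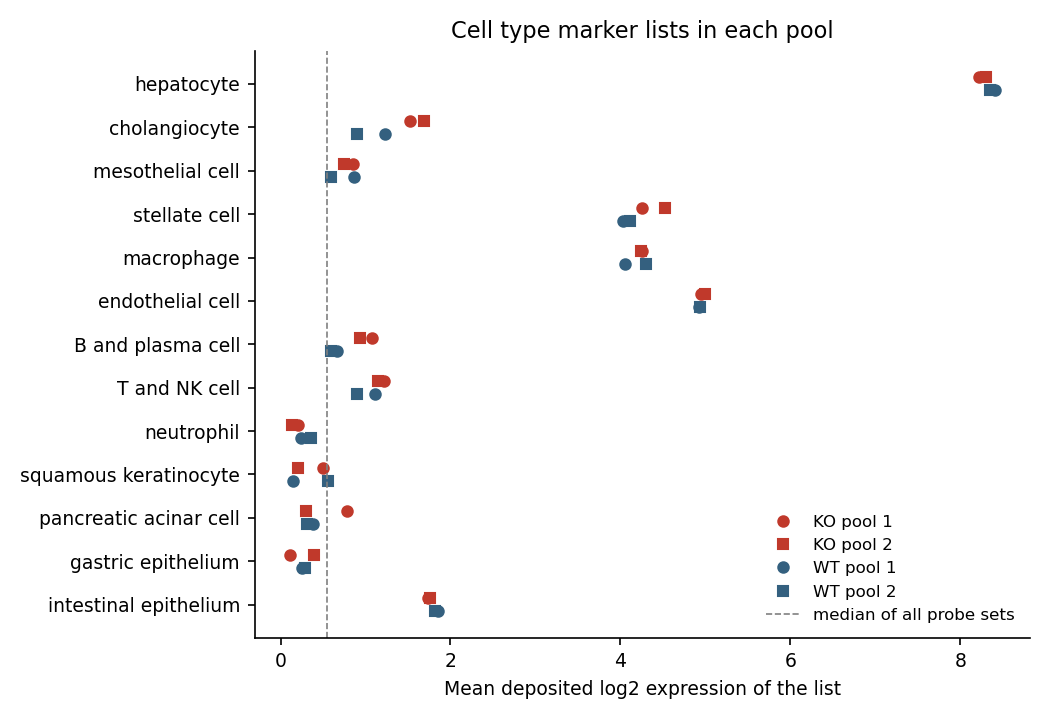
Mean deposited log2 expression (horizontal axis) of the 13 cell type marker lists in each pool, KO in red and WT in blue, with a dashed line at the table median of 0.54. The cholangiocyte list has KO means of 1.52 and 1.69 beside WT means of 1.22 and 0.90, and the squamous keratinocyte list stays between 0.15 and 0.56. The hepatocyte list holds the dim gene Trh in place of Trf, which lowers its mean in every pool.

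The genes whose pattern over the 4 arrays was most like that of the 7 were named by Euclidean distance after subtraction of the WT mean, with 2 taken for each from outside the 7, which were left out of this search. Rragd, one of the Rag GTPases that signal amino acid supply to mTORC1, was the nearest to Sprr1a, Sytl5 and Cib3, at distances of 0.48, 0.31 and 0.76, with Pls1 next for all 3. Rragd was at 4.84 and 5.001 in the KO pools, against 2.31 and 2.19 in the WT pools, and rose by 2.67 ± 0.19 (SE, limma adjusted p = 0.0272). Without KO pool 1 its difference was 2.75 and without KO pool 2 it was 2.58, and the call was lost in both cases (limma, adjusted p = 0.754 and 0.549).

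Elapor1 was nearest to Dpt, the matrix protein dermatopontin (distance 0.23), and Sdcbp2 to Bicc1, an RNA-binding protein (0.15), with Ajuba, a LIM-domain protein of cell junctions, next for both (0.42 and 0.31). Bicc1 was at 4.43 and 4.600 in the KO pools, against 2.53 and 2.74 in the WT pools (1.88 ± 0.20 SE, limma adjusted p = 0.121). Ly6d and Sox4 were both nearest to Serpinb6b, an intracellular serpin (0.17 and 0.11), followed by Fam83a for Ly6d (0.198) and the integrin subunit Itga8 for Sox4 (0.19). Serpinb6b was at 3.28 and 2.90 in the KO pools, against 1.59 and 1.86 in the WT pools, higher in KO pool 1 as Ly6d and Sox4 were. It differed by 1.37 ± 0.23, Fam83a by 1.51 ± 0.22 and Itga8 by 1.19 ± 0.22. With 4 arrays a small distance says that size and spread of the difference are alike and no more.

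The genes next to the 7 on their chromosomes were read as a description. The 7 were chosen for their difference and these neighbours were not, so the sizes are not compared. The 3 measured genes on each side of each, 42 in all by their order in RefSeq (GRCm38.p6), gave a median of 0.08 with 27 above 0 and 15 below, from -0.59 for Snph beside Sdcbp2 to 0.55 for Cybb beside Sytl5. Limma called 0 of the 42, and 1, Cybb, a subunit of the phagocyte NADPH oxidase, had an unadjusted p under 0.05. Pools did not overlap and were higher in KO for 8, or 19%, against 20.9% of all genes. Sprr3 and Sprr4, on either side of Sprr1a, differed by 0.03 ± 0.25 and 0.08 ± 0.23 (SE), and Lynx1 and Ly6g6g, on either side of Ly6d, by 0.01 ± 0.27 and -0.01 ± 0.30. The group means of Sprr3, Sprr4 and Ly6g6g lay below the table median in both genotypes, so a change there could go unseen. This set of neighbours was chosen after the values of the 7 genes were seen.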

How the data were processed

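Liver RNA pools, 2 Nrg4 KO and 2 WT, were measured on Affymetrix Mouse Gene ST arrays from 400 ng of RNA, per the labels' protocols. The deposited values are log2 expression of 41345 probe sets. oligo, RMA and limma were used, per the submitters' processing notes, with no versions, order or genome build stated there. RMA equalises arrays, which can hide global shifts. The platform annotation paired 23521 probe sets with 1 symbol, 1814 with several and 16010 with none, and the last 2 kinds were left out. For 1082 genes more than 1 probe set remained and the brightest on average was kept, leaving 22180 genes.

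limma 3.58.1 in R 4.3.3 (lmFit, eBayes, 2 residual and 4.33 prior degrees of freedom, no covariate, Benjamini-Hochberg) was fitted to all genes without a filter, because a filter on the mean admits genes that are dim in WT through their KO level. All 7 genes passed a filter at the table median (median of the probe sets' means over the arrays) and 5 a filter 1 above it. A limma fit of the same form, written separately, was checked on simulated data for its estimates of the difference only. The 7 genes and the 22 gene lists were chosen with earlier results of these data known. Named from each list of relatives were called genes, otherwise the 3 with the smallest p, and from each marker list the brightest and that with the smallest p. Krt7, Krt19, Epcam, Trem2, Cd68, Cdx2, Vil1, Tspan8, Ehf, Cd24a and the chromosomal neighbours were named after their values were seen. So were Trh, Reln, Des, Cd79a, Cd79b, Ms4a1, Mzb1, Sctr and Cftr. No scan date or batch was used here, and the number of arrays limits the precision. Alternatives were filters, array centring, quantile normalization, variance models, the mean of probe sets, a replicate block and leaving out each pool.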

Additional observations from a re-analysis of the deposited data

How the results depend on the processing

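The 7 genes stayed higher in KO under all 12 alternatives that held them, from 0.69 for Sox4 as the mean of its probe sets to 3.28 for Cib3 without KO pool 1. Their median difference was 1.89 to 2.26 when 1 pool was left out, and it has no value under the stricter filter on dim genes, which 5 of the 7 passed. limma called 7 genes in the fit of all 4 pools, 83 (27 higher and 56 lower) with a variance that follows intensity, 0 when either KO pool was dropped, 16 when WT pool 1 was dropped and 7 when WT pool 2 was. Those fits rest on a single pool of one genotype, assumed to vary like the other. Of the lists of relatives, 4 genes were called with a variance that follows intensity, and 0 to 1 when 1 pool was left out. With the pool number as a replicate block limma called 11 genes. Pools with the same number did not deviate together (r = -0.04 across genes), so the numbers are not taken to pair the pools.

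Small differences of genes that did not pass turned sign in some fits, and the cause was not tested. Vsig4 was at 0.048 with quantile normalization. When each pool was left out in turn, values ran from -1.07 to 0.22 for Cd3e, -0.079 to 0.054 for Cela1, -0.87 to 0.11 for Cib1, -0.15 to 0.35 for Elapor2, -0.49 to 0.73 for Gpm6a, -0.034 to 0.29 for Igf1r, -0.79 to 0.55 for Krt10, -0.12 to 0.78 for Tff2 and -0.093 to 0.072 for Vsig4. In these fits 28 of the 58 named genes outside the 7 moved by over 1.5 times or turned sign, none of them called with all 4 pools, among them Sox9 (0.26 to 1.46), Ppl (0.64 to 1.63), Sdc2 (-0.72 to -0.30) and Snph (-0.98 to -0.20).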
